A study of Mus musculus with 5 samples.

Results

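LIM homeobox genes encode transcription factors, and the methylation of the CpGs in and around 4 of them, Lhx1, Lhx2, Lhx5 and Lmx1b, was examined in mouse embryonic stem (ES) cells. The loci were fixed as intervals of the mouse build mm9: chr11:84325000-84345000 for Lhx1, chr2:38190000-38225000 for Lhx2, chr5:120870000-120895000 for Lhx5 and chr2:33408000-33505000 for Lmx1b, 177 kb in all. Members were the 1-kb windows of these intervals that hold a CpG listed in any library outside the MspI recognition site CCGG, which gave 67 windows of 115091 in the series, 9 at Lhx1, 17 at Lhx2, 14 at Lhx5 and 27 at Lmx1b. They held 619 of the 598336 CpGs listed outside MspI sites. The 5 genotypes were profiled by reduced representation bisulfite sequencing, 1 library each: Fbxl10 T/T, Ring1B -/-, Eed -/-, Ezh2 -/- and WT. Bisulfite turns unmethylated cytosines into bases read as T, so methylation of a CpG is given as the percentage of its reads that still show C. The Fbxl10 T/T and WT cells carry the strain label C57BL/6J and came from passage 17, grown with serum and LIF on mouse embryonic fibroblasts that were taken off before use. The Ring1B -/-, Eed -/- and Ezh2 -/- cells carry neither a strain nor a passage label, and their culture is described as serum with LIF. What the letter T of the Fbxl10 allele stands for, and whether a line is a single clone, are not given in the labels used here. With 1 library per genotype, a difference between genotypes cannot be told apart from one between cultures or libraries, and for the 3 Polycomb mutants also not from one of strain.

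LIM homeodomain proteins bind DNA through a homeodomain and bind cofactors such as LDB1 through a pair of zinc-binding LIM domains. Lhx1 acts in the head organizer and in the forming kidney and female reproductive tract, Lhx2 in the forebrain and eye, Lhx5 in the hippocampus and other parts of the forebrain, and Lmx1b in dorsal limb identity and in dopaminergic and serotonergic neurons. In ES cells, CpG-rich regions of such developmental regulators are typically unmethylated and bound by Polycomb complexes. FBXL10, also called KDM2B, binds unmethylated CpG through its CXXC zinc finger and is part of a form of Polycomb repressive complex 1. Ring1B is the ubiquitin ligase of that complex, and Eed and Ezh2 are the core subunit and the histone methyltransferase of Polycomb repressive complex 2. The series title sets the question as whether FBXL10 protects genes bound by Polycomb from gaining methylation.

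The deposited tables carry positions and 5-letter sequence contexts but no gene names, so gene starts were placed by matching RefSeq promoter sequences to those contexts. The start of Lhx1 was placed at base 84339036 of mm9 chromosome 11 on the minus strand, that of Lmx1b at base 33496618 of chromosome 2 on the minus strand, and that of Lhx2 at base 38194801 of chromosome 2 on the plus strand. The Lhx2 start came from a looser rule added after the data were seen, because its best position matched 23 contexts and the next best 13. The Lhx5 interval was checked by neighbours alone: it lies between the placed starts of Rbm19 and Ddx54, as the gene does in RefSeq. Those starts lie 303.5 kb before and 168.1 kb after the interval, too far away to show that it holds the gene. The 3 promoters are shown because their starts could be placed, whatever their methylation. Each runs 5′ to 3′ along the gene from 250 bases before to 50 after the start, from RefSeq, build GRCm38.p6, with every CpG in capitals (Lhx1, chr11:84525485-84525784, minus strand; Lhx2, chr2:38339031-38339330, plus strand; Lmx1b, chr2:33641049-33641348, minus strand).
Lhx1: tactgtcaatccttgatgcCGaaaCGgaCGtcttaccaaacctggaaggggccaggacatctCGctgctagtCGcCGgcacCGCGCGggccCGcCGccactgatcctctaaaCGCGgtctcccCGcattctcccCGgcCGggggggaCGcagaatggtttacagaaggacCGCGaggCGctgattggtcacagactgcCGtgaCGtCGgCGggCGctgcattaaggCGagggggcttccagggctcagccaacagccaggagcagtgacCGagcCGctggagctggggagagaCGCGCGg
Lhx2: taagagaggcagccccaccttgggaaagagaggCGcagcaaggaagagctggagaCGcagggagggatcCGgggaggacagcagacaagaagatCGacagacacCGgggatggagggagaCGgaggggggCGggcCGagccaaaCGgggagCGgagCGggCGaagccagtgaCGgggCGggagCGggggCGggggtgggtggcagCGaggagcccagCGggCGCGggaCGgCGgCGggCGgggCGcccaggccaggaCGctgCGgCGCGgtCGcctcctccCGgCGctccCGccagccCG
Lmx1b: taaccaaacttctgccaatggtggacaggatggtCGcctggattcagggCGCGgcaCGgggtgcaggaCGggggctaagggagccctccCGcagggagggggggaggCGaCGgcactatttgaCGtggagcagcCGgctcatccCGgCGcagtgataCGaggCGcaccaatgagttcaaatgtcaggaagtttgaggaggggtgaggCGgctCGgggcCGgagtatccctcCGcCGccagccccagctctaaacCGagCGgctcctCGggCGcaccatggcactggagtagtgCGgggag
The letters CG occur 31 times in the Lhx1 promoter, 34 times in that of Lhx2 and 24 times in that of Lmx1b, against a median of 7 over 32851 RefSeq promoters of the same length. Of all these promoters, 10.6% hold at least as many as Lhx1, 7.73% as many as Lhx2 and 19.98% as many as Lmx1b. CCGG, the site cut by MspI, occurs 3 times in each of the 3, and in 52.8% of all promoters at least once. CG and CCGG read the same on both strands.

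At the CpGs of these promoters outside MspI sites that had reads in both libraries, Lhx1 showed 0 methylated of 149 reads over 8 CpGs in Fbxl10 T/T, which allows a level of up to 2.01%, against 0.415% of 241 reads in WT. The Lmx1b promoter stood at 76.3% in Fbxl10 T/T (95% Wilson interval 67.8 to 83.0%, 118 reads over 7 CpGs), against 0.637% in WT (0.175 to 2.29%, 314 reads). In the Lhx2 promoter 1 CpG had reads, at 71.1% of 76 reads in Fbxl10 T/T and 2.34% of 128 reads in WT. So at these CpGs the promoters of Lmx1b and Lhx2 were methylated in most reads of Fbxl10 T/T, and that of Lhx1 in none. The MspI-site CpGs of the Lhx1 promoter at bases 84339151 and 84339210 had 3 of 25 and 1 of 15 reads methylated in Fbxl10 T/T and 5 of 37 and 2 of 26 in WT. The promoters of Lhx1, Lhx2 and Lmx1b hold 31, 34 and 24 CG, and the levels outside MspI sites rest on 8, 1 and 7 CpGs. A link between the number of CG and methylation was not tested.

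Depth set what could be compared. At CpGs outside MspI sites the loci held 11931 reads from Fbxl10 T/T, 1092 from Ring1B -/-, 1033 from Eed -/-, 894 from Ezh2 -/- and 24242 from WT, with medians of 19, 2, 3, 3 and 31 reads per CpG in the same order, and a read counts at each CpG it covers. CpGs inside MspI sites read higher than the other CpGs over the 4 loci together in all 5 libraries (60.6, 45.9, 42.9, 44.4 and 33.8% methylated at MspI sites, 48.3, 9.71, 6.58, 10.1 and 8.60% outside them, in the same order) and were left out of the main values. A window was tested where at least 5 of its CpGs had a read in both libraries and each library had at least 30 reads. A call needed 20 points or more of difference and, after Benjamini-Hochberg adjustment over all tested windows of the genome, p under 0.05 (two-sided Fisher's exact test of summed reads). Such a test sets the reads of one library against those of another, which is not a test of genotype, and all intervals (95%, Wilson for levels and Newcombe for differences) cover counting error only. Reads at neighbouring CpGs are often the same molecule, which makes intervals and p-values too small. The tables hold no expression values, so the ES cell label could be checked only at promoters: of 5 ES cell marker genes, Sox2 could be placed by the stricter rule and Esrrb and Pou5f1 by the looser one, and no identity is read from their methylation.

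Lhx2, Lhx5 and Lmx1b were methylated in every tested window in Fbxl10 T/T, at levels of 32.7 to 81.1%, where most windows of WT stood under 12%, and Lhx1 was not. In Fbxl10 T/T, 24 of the 30 tested windows rose against WT and 0 fell (25.5% of 20072 windows rose in the whole series and 2.65% fell). Falls appeared at Lmx1b under settings that admit more windows. With MspI-site CpGs kept 5 fell, beside 29 that rose, and 2 fell with at least 3 CpGs per window, beside 26, all at 72.7 to 92.6% in WT. The median level of the 30 windows was 57.5% in Fbxl10 T/T and 4.99% in WT, and their median difference was 49.7 points, against 0.306 points over all windows tested. All 7 tested windows of Lhx2, all 9 of Lhx5 and all 7 of Lmx1b rose, whereas 1 of 7 rose at Lhx1. Of the 22 windows under 10% in WT, 17 rose (21.3% of such windows in the series), and the 5 that did not are all at Lhx1. Among those 5, the windows at 84326001 and 84327001 lie at the start of the neighbouring gene Aatf. The other 37 windows had too few CpGs or reads: 27 of them had a CpG read in both libraries, and over these CpGs the level was 44.0% in Fbxl10 T/T (41.4 to 46.7%) and 33.6% in WT (31.8 to 35.5%).

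**Figure D1:**
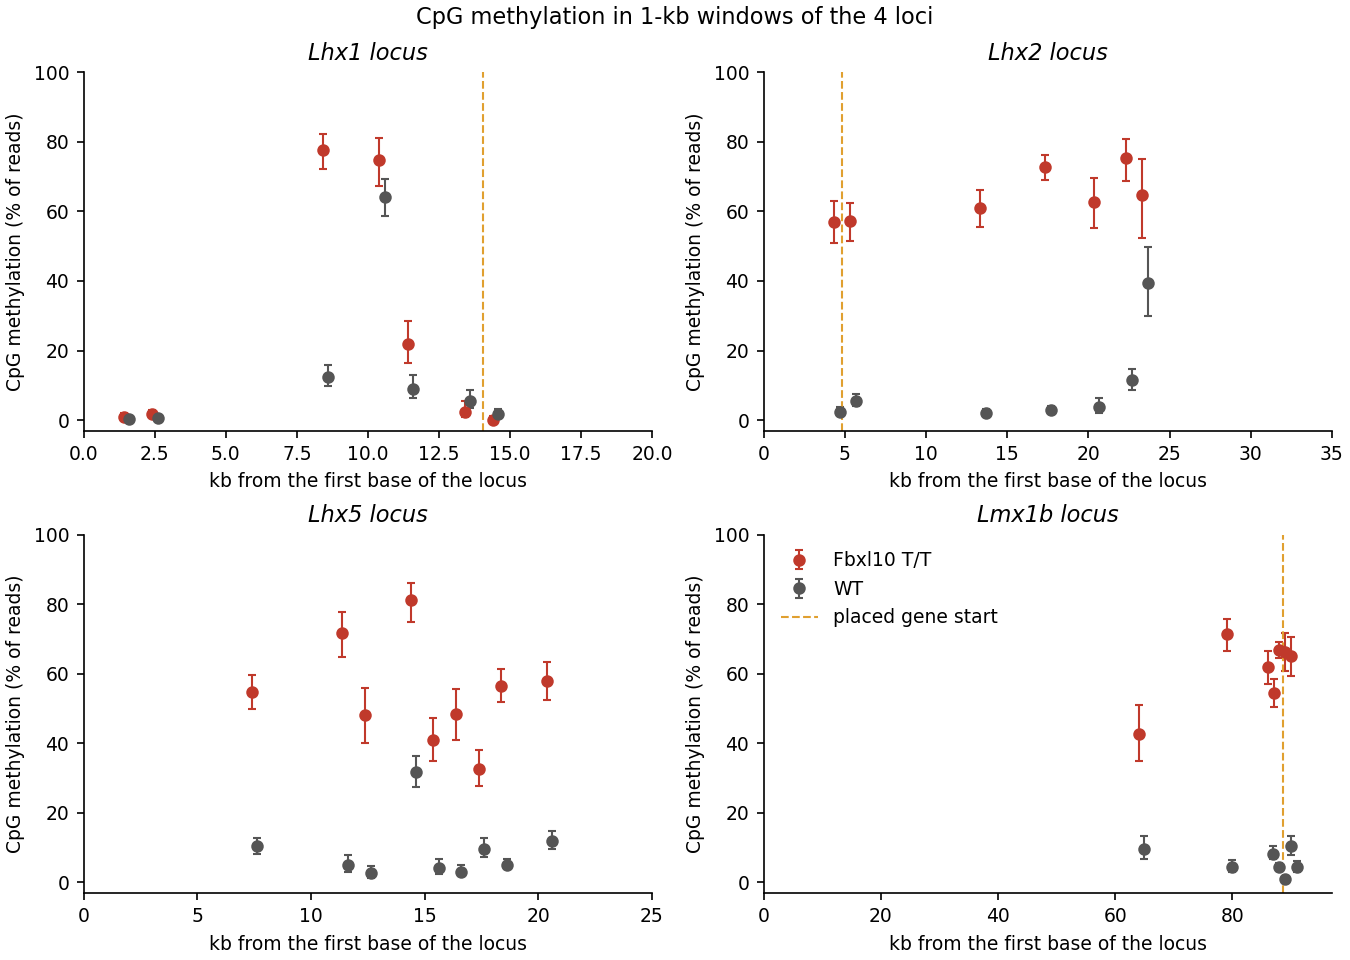
CpG methylation (percent of reads) of each tested 1-kb window in Fbxl10 T/T (red) and WT (grey) against the distance in kb from the first base of each locus; points of 1 window are drawn slightly apart, bars are 95% Wilson intervals, and the dashed line is the gene start where it was placed. At Lhx2, Lhx5 and Lmx1b every Fbxl10 T/T point lies above its WT point, with levels of 32.7 to 81.1%, whereas at Lhx1 both windows beside the gene start lie under 6% in both libraries.

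At Lhx2 the Fbxl10 T/T level lay between 57.1 and 75.3% in the 7 tested windows, against 2.13 to 39.3% in WT. The window with the largest rise, chr2:38207001-38208000, which also had the most WT reads, lies 12.7 kb downstream of the placed start. It stood at 72.7% in Fbxl10 T/T (69.0 to 76.1%, 600 reads) and 2.81% in WT (1.99 to 3.96%, 1103 reads) over 25 CpGs. The difference of 69.9 points (66.0 to 73.4, adjusted p = 2.46e-220, Fisher's exact test) was the largest of all 30 windows tested in the loci. The window with the gene start, chr2:38194001-38195000, stood at 57.1% in Fbxl10 T/T (50.8 to 63.1%, 247 reads) and 2.47% in WT (1.62 to 3.75%, 849 reads), a difference of 54.6 points (adjusted p = 6.12e-84, Fisher's exact test). The smallest rise was in the window with the highest WT level, chr2:38213001-38214000, at 64.6% of 65 reads in Fbxl10 T/T and 39.3% of 89 reads in WT. That window had the fewest reads of the locus, and its difference of 25.3 points carried an interval of 9.31 to 39.5. The windows that rose thus ran from the gene start to 18.7 kb past it.

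The longest stretch that overlapping contexts spell out in the window of the largest rise is given here for Lhx1, Lhx2 and Lmx1b, because it lies where the gain was greatest (mm9, plus strand; CpGs in capitals): chr11:84333723-84333779 for Lhx1, chr2:38207123-38207215 for Lhx2, and chr2:33487288-33487344 for Lmx1b.
Lhx1 stretch: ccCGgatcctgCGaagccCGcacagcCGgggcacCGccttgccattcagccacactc
Lhx2 stretch: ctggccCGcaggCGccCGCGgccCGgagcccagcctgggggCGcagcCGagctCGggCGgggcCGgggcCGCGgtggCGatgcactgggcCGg
Lmx1b stretch: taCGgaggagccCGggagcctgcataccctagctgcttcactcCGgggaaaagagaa
In the Lhx2 stretch, 11 CpGs outside MspI sites stood at 73.6% in Fbxl10 T/T (356 reads) and 0.660% in WT (606 reads). In the Lhx1 stretch 3 CpGs stood at 77.04% in Fbxl10 T/T (135 reads) and 10.3% in WT (311 reads). The Lmx1b stretch had a single such CpG, at 56.5% of 23 reads in Fbxl10 T/T and 2.56% of 39 reads in WT. The stretches differ in density, from 3 CG in 57 bases at Lmx1b to 14 CG in 93 bases at Lhx2.

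Lhx5, for which no start was placed, had 9 tested windows between 32.7 and 81.1% in Fbxl10 T/T and between 2.59 and 31.7% in WT. Its largest rise was in chr5:120881001-120882000, at 71.7% in Fbxl10 T/T (64.7 to 77.7%, 180 reads) and 4.89% in WT (3.03 to 7.80%, 327 reads) over 13 CpGs. The difference was 66.8 points (59.2 to 73.1, adjusted p = 4.88e-58, Fisher's exact test). The deepest window in WT, chr5:120888001-120889000, stood at 56.6% in Fbxl10 T/T (410 reads) and 5.08% in WT (807 reads), a difference of 51.5 points (46.4 to 56.4, adjusted p = 9.08e-90, Fisher's exact test). The lowest and the highest Fbxl10 T/T levels of the locus, 32.7% and 81.1%, were in windows 3 kb apart, where WT stood at 9.72% and 31.7%. The low level rests on 1 deeply read CpG, at base 120887750, with 44 of 204 reads methylated in Fbxl10 T/T and 23 of 280 in WT. Without the most deeply read CpGs of the series that window stood at 53.2% of 111 reads in Fbxl10 T/T and 11.7% of 214 reads in WT. Its difference was then 41.5 points in place of 22.98. The lowest Fbxl10 T/T level of the locus was then 40.9%, in the window at 120885001, against 4.05% in WT.

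Lmx1b rose in each of its 7 tested windows, 5 of which lie side by side around the gene start. Its start lies in a window, chr2:33496001-33497000, that had the most reads and the most CpGs of all windows in the loci. It stood at 66.8% in Fbxl10 T/T (64.4 to 69.2%, 1496 reads) and 0.982% in WT (0.722 to 1.33%, 4073 reads) over 57 CpGs, a difference of 65.9 points (63.4 to 68.2, adjusted p at most 1e-300, Fisher's exact test). The largest rise was in chr2:33487001-33488000, 9.1 kb downstream of the start, at 71.3% in Fbxl10 T/T (66.4 to 75.8%, 352 reads) and 4.45% in WT (3.12 to 6.32%, 651 reads), a difference of 66.9 points (adjusted p = 2.85e-115, Fisher's exact test). The most distant tested window, 24.1 kb downstream of the start, had the lowest Fbxl10 T/T level of the locus, 42.8% (34.8 to 51.1%, 138 reads), against 9.60% in WT. The starts of C130021I20Rik and Gm39790 were placed within the same 2 kb as the Lmx1b start on the opposite strand, and reads within 500 bases of them stood at 64.8% and 56.8% in Fbxl10 T/T and at 1.71% and 4.82% in WT. These starts share CpGs with the Lmx1b windows and are not further evidence. Elsewhere in the interval, 20 windows were too thinly covered to test, and over the 30 of their CpGs read in both libraries the level was 47.6% in Fbxl10 T/T (44.1 to 51.2%) and 50.8% in WT (48.1 to 53.6%). These pooled levels mix CpGs that moved in opposite directions. Of the 22 with at least 10 reads in both libraries, 4 rose, at 45.7 to 61.9% in Fbxl10 T/T and 1.48 to 14.3% in WT (16.5% of CpGs in the series rose). Another 6 fell, at 14.8 to 50% in Fbxl10 T/T and 71.1 to 92.9% in WT. In the series 4.35% of CpGs fell, and 25.8% of those at 50% or more in WT.

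Lhx1 stood apart in the values: its start stayed unmethylated in Fbxl10 T/T and a single window inside the interval rose. Within 500 bases of the start, 0 of 188 reads over 13 CpGs were methylated in Fbxl10 T/T, which allows a level of up to 1.60%, against 1 of 289 reads in WT (0.346%). The window with the start, chr11:84339001-84340000, which also covers the start of the antisense transcript Lhx1os, had 0 methylated of 329 reads in Fbxl10 T/T (allowing up to 0.912%) and 1.70% of 470 reads in WT. The next window into the gene, chr11:84338001-84339000, stood at 2.42% in Fbxl10 T/T and 5.41% in WT, and its adjusted p of 0.212 (Fisher's exact test) did not pass. About 5.5 kb downstream of the start, chr11:84333001-84334000 stood at 77.7% in Fbxl10 T/T (72.2 to 82.3%, 264 reads) and 12.5% in WT (9.75 to 15.8%, 457 reads) over 8 CpGs. Its difference of 65.2 points (58.8 to 70.5, adjusted p = 2.43e-70, Fisher's exact test) was close to the largest at Lhx5 and Lmx1b, 66.8 and 66.9 points. Between that window and the start, chr11:84335001-84336000 stood at 74.8% in Fbxl10 T/T and 64.2% in WT, and chr11:84336001-84337000 at 21.8% in Fbxl10 T/T and 9.09% in WT, neither reaching 20 points. At the far end of the interval the window with the most WT reads, chr11:84327001-84328000, stood at 1.81% of 1104 reads in Fbxl10 T/T and 0.609% of 1805 reads in WT. It adjoins the start of Aatf, a neighbouring gene with a role in transcription and ribosome formation, where the level was 1.51% in Fbxl10 T/T and 0.487% in WT. Whether Lhx1 differs from the other 3 loci was not tested, and the median window of the series stood at 2.82% in Fbxl10 T/T.

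Single CpGs gave the same division between loci at base resolution. Most of them lie in the tested windows and are counted from the same reads, so they are not further evidence. Of 329 CpGs outside MspI sites with at least 10 reads in both libraries, 219 rose by at least 25 points in Fbxl10 T/T and 7 fell (16.5% of 368305 CpGs rose in the whole series and 4.35% fell; Fisher's exact test, adjusted p under 0.05). Lhx2 had 59 of 65 CpGs higher, Lhx5 60 of 69, Lmx1b 94 of 121 and Lhx1 6 of 74. The median CpG stood at 64.3% in Fbxl10 T/T and 2.94% in WT at Lhx2, at 57.1% and 5.26% at Lhx5, at 61.9% and 2.98% at Lmx1b, and at 0 in both libraries at Lhx1. The 6 CpGs of Lhx1 that rose all lie in the window 5.5 kb from the start, at 73.0 to 84.2% in Fbxl10 T/T and 0 to 21.1% in WT. At Lhx1, 42 of the 74 CpGs had no methylated read in Fbxl10 T/T, against 43 in WT. Many of the Lhx1 CpGs lie around the start of the neighbouring gene Aatf, 12.5 and 11.5 kb downstream of the Lhx1 start. The windows there, at 84326001 and 84327001, had 14 and 24 CpGs read in both libraries. None of those CpGs rose, so the Lhx1 counts and median do not describe Lhx1 alone.

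Near the starts of Lhx2 and Lmx1b, no CpG of Fbxl10 T/T was as low as the highest CpG of WT. Within 500 bases of the Lmx1b start, 43 CpGs ranged from 41.7 to 90.9% in Fbxl10 T/T (median 67.7%) and from 0 to 25% in WT (median 0). At Lhx2, 11 CpGs ranged from 38.5 to 71.1% in Fbxl10 T/T (median 58.8%) and from 0 to 3.39% in WT (median 1.43%). At Lhx1, all 10 CpGs stood at 0 in Fbxl10 T/T, and the highest in WT stood at 2.70%. The Lhx1 CpGs with 10 reads lie at positions -462 to -126 relative to the start, so the first bases of the transcript were not covered at that depth.

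**Figure D2:**
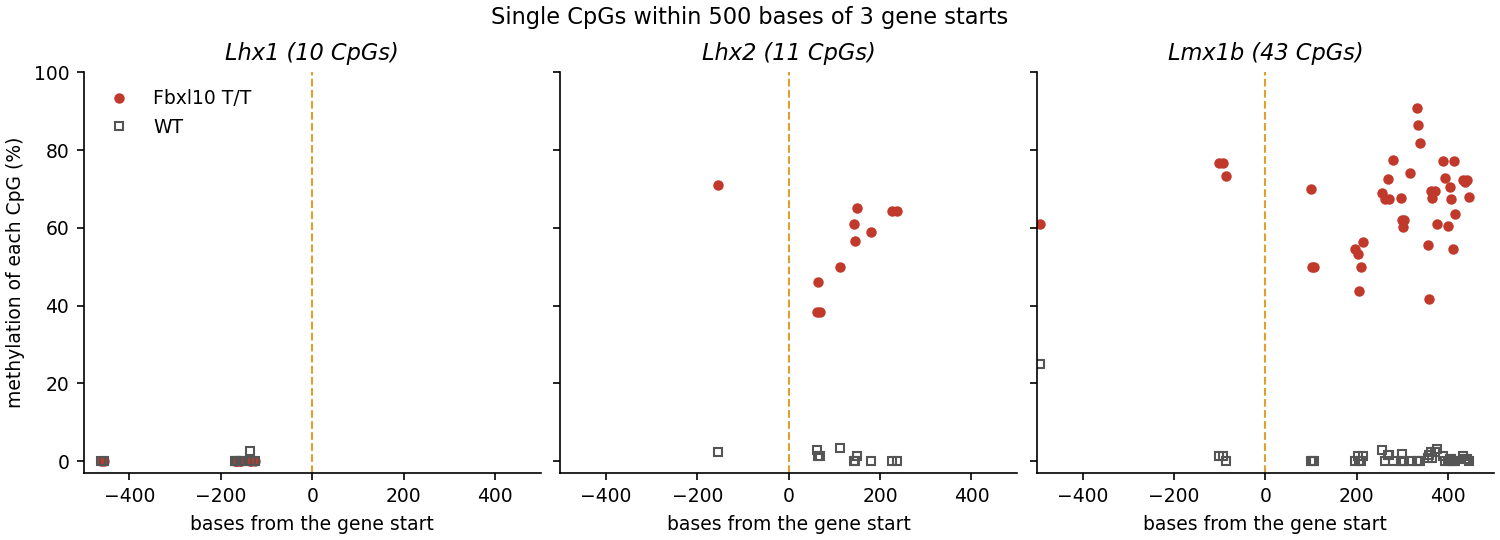
Methylation (%) of each CpG with at least 10 reads in both libraries against its distance in bases from the placed start of Lhx1, Lhx2 and Lmx1b, positive into the gene; filled red circles are Fbxl10 T/T, open grey squares are WT, and the dashed line is the start. The 10 Lhx1 CpGs lie at or near 0 in both libraries, and the lowest Fbxl10 T/T values are 38.5% at Lhx2 and 41.7% at Lmx1b, above the highest WT values of 3.39% and 25%.

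The 7 CpGs that fell were all highly methylated in WT. Of these, 6 lie in the thinly covered part of Lmx1b, more than 13 kb from its start, at 14.8 to 50% in Fbxl10 T/T and 71.1 to 92.9% in WT. The largest of these falls, at base 33431111 of chromosome 2, was to 14.8% of 27 reads in Fbxl10 T/T, against 71.1% of 38 reads in WT. The other one, at base 38221682 of chromosome 2 in the Lhx2 interval, stood at 61.7% of 47 reads in Fbxl10 T/T and 87.1% of 70 reads in WT. Of the 249 CpGs of the loci under 10% in WT, 178 rose (17.2% of such CpGs in the series): 47 of 49 at Lhx2, 47 of 49 at Lhx5, 83 of 90 at Lmx1b and 1 of 61 at Lhx1, where the 61 include CpGs around the Aatf start. Of the 18 at 50% or more in WT, 7 fell (25.8% of such CpGs in the series). The WT level enters both this division and the difference, so the counts are descriptions.

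In none of the 3 Polycomb mutants was a tested window of Lhx2, Lhx5 or Lmx1b called higher than in WT. Such calls were rare over the whole series too, so their absence does not set these loci apart. In Ring1B -/-, 0 of 9 tested windows were called against WT (1.3% of 8663 windows rose in the series and 0.554% fell). Of the 9, 0 had an unadjusted p under 0.05 in Fisher's exact test, against 2126 of the 8663. In Eed -/-, 0 of 12 were called (0.352% of 9091 rose, 0.671% fell). Of the 12, 2 had an unadjusted p under 0.05 in Fisher's exact test, against 2087 of the 9091. In Ezh2 -/-, 1 of 9 rose (0.211% of 8513 rose, 0.787% fell), and it lies at Lhx1. Of the 9, 2 had an unadjusted p under 0.05 in Fisher's exact test, against 1555 of the 8513. Among the tested windows of the loci, the Lmx1b start window had the most reads in each mutant. There 1.64% of 305 reads were methylated in Ring1B -/-, against 0.942% in WT over the shared CpGs. The values were 2.16% of 231 in Eed -/-, against 0.970% in WT, and 0.847% of 118 in Ezh2 -/-, against 0.846% in WT. For this window the differences from WT were 0.698 points for Ring1B -/- (-0.313 to 2.85), 1.19 points for Eed -/- (-0.0957 to 4.01) and 0.00185 points for Ezh2 -/- (-0.780 to 3.81). The upper bounds lie far below the 65.9 points of Fbxl10 T/T.

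At Lhx2 the window 12.7 kb downstream of the start had 1 of 86 reads methylated in Ring1B -/- (1.16%), against 2.83% in WT, 2 of 52 in Eed -/- (3.85%), against 3.42% in WT, and 1 of 65 in Ezh2 -/- (1.54%), against 3.15% in WT. The window with the Lhx2 start stood at 4.92% in Ring1B -/- (3 of 61 reads) and had no methylated read of 59 in Eed -/-, which allows up to 5.08%, against 2.66% in WT for both. At Lhx5 the window with the most WT reads had 3 of 44 reads methylated in Eed -/- (6.82%), against 4.49% in WT, and 2 of 37 in Ezh2 -/- (5.41%), against 4.23% in WT. None of these passed the test, and the widest interval of their differences ran from -3.09 to 13.5 points. The highest levels outside Lhx1 were in the Lmx1b window chr2:33494001-33495000, 2.1 kb downstream of the start, at 16.3% in Ring1B -/- (8 of 49 reads) and 20.8% in Ezh2 -/- (10 of 48), against 8.28 and 8.50% in WT, with adjusted p of 0.246 and 0.0881 (Fisher's exact test). Cytosines outside CpG in the same loci, which measure reads left unconverted or methylated elsewhere than at CpG, stood at 2.08% (Ring1B -/-), 2.21% (Eed -/-), 2.29% (Ezh2 -/-) and 0.603% (Fbxl10 T/T), against 0.693% in WT, and their part in the low CpG levels was not tested.

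The window that rose in Ezh2 -/- is the one just inside Lhx1, chr11:84338001-84339000, at 42.9% in Ezh2 -/- (30.02 to 56.7%, 21 of 49 reads) and 4.69% in WT (2.76 to 7.86%, 13 of 277 reads) over 6 shared CpGs. Its difference was 38.2 points (24.9 to 52.2, adjusted p = 6.85e-09, Fisher's exact test). It rested on 1 CpG, at base 84338180, 856 bases into the gene: without it the window stood at 7.41% in Ezh2 -/- (2 of 27 reads) and 4.08% in WT (10 of 245), a difference of 3.33 points (-2.94 to 19.4). That CpG had 19 of 22 reads methylated in Ezh2 -/-, 7 of 8 in Eed -/-, 3 of 5 in Ring1B -/- and 1 of 29 in Fbxl10 T/T, against 3 of 32 in WT. The MspI-site CpG 25 bases before it on the chromosome had 23 of 23 reads methylated in Ezh2 -/-, 7 of 8 in Eed -/-, 4 of 5 in Ring1B -/- and 8 of 30 in Fbxl10 T/T, against 7 of 32 in WT. These 2 neighbouring CpGs were high in all 3 Polycomb libraries and low in Fbxl10 T/T and WT, and they were singled out after their values were seen. Their read numbers are nearly equal in each Polycomb library, so they do not count as 2 separate observations. In Ezh2 -/- the 22 and 23 reads stand beside a median of 3 reads per CpG in the loci. In Eed -/- the window at the Aatf end of the Lhx1 interval, chr11:84327001-84328000, stood at 11.1% (7 of 63 reads), against 0.105% in WT (1 of 955), a difference of 11.01 points (5.36 to 21.1, adjusted p = 2.35e-06, Fisher's exact test) that did not reach 20 points. The same window had no methylated read of 64 in Ring1B -/- and of 78 in Ezh2 -/-, which allows up to 4.69% and 3.85%.

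**Figure D3:**
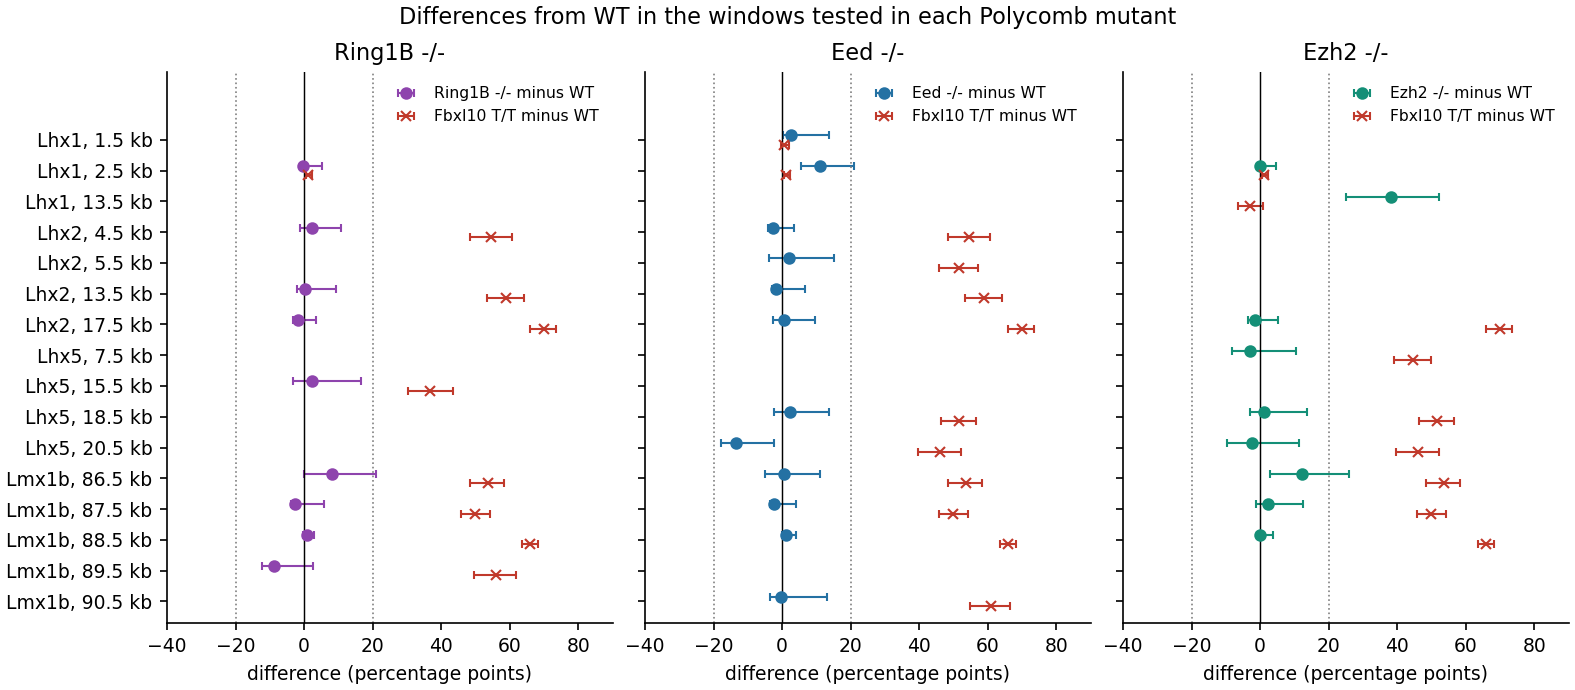
Difference from WT in percentage points for each window of the loci tested in Ring1B -/- (left), Eed -/- (middle) and Ezh2 -/- (right), with the difference of Fbxl10 T/T from WT in the same window as a red cross; rows give the locus and the kb of the window's centre from its first base, bars are 95% Newcombe intervals, and dotted lines mark 20 points. Each comparison uses the CpGs its 2 libraries share, and all share the WT library. The mutant points lie between -13.4 and 12.3 points except for the Lhx1 window at 13.5 kb in Ezh2 -/-, at 38.2.

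Set directly against each Polycomb mutant, Fbxl10 T/T was higher in most windows tested. Against Ring1B -/-, 8 of 9 windows were higher in Fbxl10 T/T and 0 lower (20.8% of 8651 windows in the series were higher, 0.451% lower). They were the Lmx1b windows starting at bases 33494001, 33495001, 33496001 and 33497001, by 45.4 to 71.7 points, the Lhx2 windows at 38194001, 38203001 and 38207001, by 52.0 to 71.0 points, and the Lhx5 window at 120885001, by 34.2 points. Against Eed -/-, 10 of 12 windows were higher and 0 lower (22.1% of 9068 higher, 0.298% lower). These were the Lmx1b windows at 33494001, 33495001, 33496001 and 33498001, by 51.4 to 65.0 points, the Lhx2 windows at 38194001, 38195001, 38203001 and 38207001, by 47.5 to 69.7 points, and the Lhx5 windows at 120888001 and 120890001, by 50.9 and 58.9 points. Against Ezh2 -/-, 7 of 9 windows were higher (21.7% of 8486 in the series) and 1 lower (0.189%). The higher ones were the Lmx1b windows at 33494001, 33495001 and 33496001, by 42.3 to 65.6 points, the Lhx2 window at 38207001, by 70.6 points, and the Lhx5 windows at 120877001, 120888001 and 120890001, by 48.2 to 54.1 points. The lower one was the Lhx1 window at 84338001, at 1.07% in Fbxl10 T/T and 42.9% in Ezh2 -/-, which without the CpG at base 84338180 stood at 0.633% and 7.41%. Against Eed -/-, the Lhx1 window at 84327001 had no methylated read of 650 in Fbxl10 T/T (allowing up to 0.462%) and stood at 11.1% in Eed -/-, under 20 points. The 3 comparisons share the Fbxl10 T/T library, which also differs from the Polycomb libraries in depth, strain label and culture.

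Over the CpGs with reads in all 5 libraries, Fbxl10 T/T had the highest level at Lhx2, Lhx5 and Lmx1b and not at Lhx1. The 41 such CpGs of Lhx2 stood at 62.2% in Fbxl10 T/T (59.5 to 64.8%) and at 8.04, 5.63 and 6.41% in the Ring1B -/-, Eed -/- and Ezh2 -/- libraries, against 5.96% in WT (5.17 to 6.86%). The 63 CpGs of Lmx1b stood at 62.6% in Fbxl10 T/T (60.8 to 64.3%) and at 4.57, 2.07 and 7.94% in the same 3 libraries, against 6.02% in WT (5.47 to 6.62%). At Lhx5, 35 CpGs stood at 53.0% in Fbxl10 T/T (50.5 to 55.5%), with Ring1B -/- at 21.0% (15.0 to 28.6%), Eed -/- at 3.45% (1.48 to 7.82%) and Ezh2 -/- at 11.4% (7.33 to 17.3%), against 11.1% in WT (9.97 to 12.3%). Ring1B -/- thus lay above WT at Lhx5 and Eed -/- below it, on 138 and 145 reads, and in both cases the intervals do not overlap that of WT. Over all the CpGs each mutant shared with WT, the difference of Ring1B -/- from WT was 8.84 points at Lhx5 (3.31 to 15.8), 3.90 points at Lhx2 (0.812 to 8.15) and -2.86 points at Lmx1b (-4.69 to -0.397). That of Eed -/- was -5.54 points at Lhx5 (-8.02 to -1.08) and -4.79 points at Lmx1b (-6.27 to -2.55). Apart from that of Eed -/- at Lhx5, which kept its sign but moved close to 0 with MspI-site CpGs kept, each of these changed sign under another setting. With at least 10 reads per CpG they were -8.21 points over a single CpG at Lhx5, -1.36 points over 3 CpGs at Lhx2 and, for Eed -/-, 0.405 points over 17 CpGs at Lmx1b. With MspI-site CpGs kept Ring1B -/- stood 0.775 points above WT at Lmx1b. At Lhx1, 23 CpGs stood at 9.23% in Fbxl10 T/T (7.78 to 10.9%), with Ring1B -/- at 13.4% (8.45 to 20.7%), Eed -/- at 12.5% (7.95 to 19.1%) and Ezh2 -/- at 13.8% (9.69 to 19.4%), against 3.92% in WT (3.18 to 4.83%). The intervals of the 4 mutants lie above that of WT there and overlap among themselves. The CpG at base 84338180 held 19 of the 27 methylated reads of Ezh2 -/-, 7 of 17 of Eed -/- and 3 of 16 of Ring1B -/-.

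**Figure D4:**
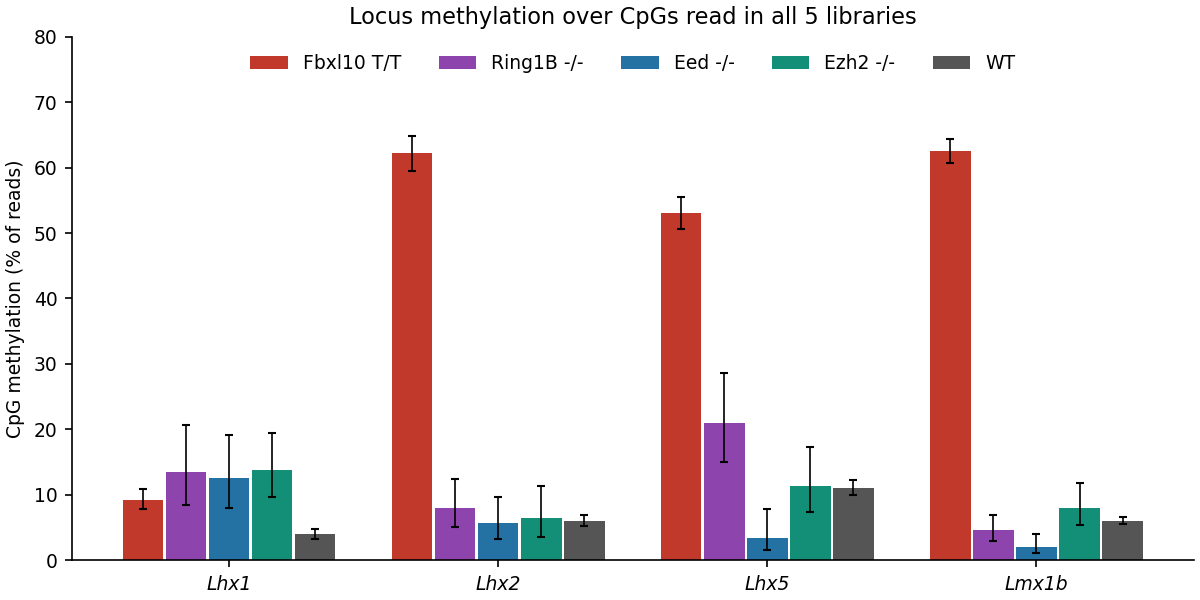
CpG methylation (percent of reads) of each locus over the CpGs with reads in all 5 libraries (23 at Lhx1, 41 at Lhx2, 35 at Lhx5 and 63 at Lmx1b); bars are Fbxl10 T/T, Ring1B -/-, Eed -/-, Ezh2 -/- and WT from left to right, with 95% Wilson intervals. Fbxl10 T/T stands at 53.0 to 62.6% at Lhx2, Lhx5 and Lmx1b and at 9.23% at Lhx1, and WT at 3.92 to 11.1%.

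Starts of other genes of the family were also methylated in Fbxl10 T/T, and none of those with a value was unmethylated there as the Lhx1 start was. Of 8 further LIM homeodomain genes, 5 could be placed by the stricter rule and 4 of these had enough CpGs and reads to test. Of these, 3 rose in Fbxl10 T/T within 500 bases of the start (15.2% of 8532 placed starts in the series rose and 0.176% fell). The largest difference was at Isl2, a gene of motor and sensory neurons, at 61.6% in Fbxl10 T/T (289 of 469 reads) and 0.980% in WT (8 of 816), 60.6 points (56.1 to 65.0, adjusted p = 1.11e-146, Fisher's exact test). The smallest was at Lhx3, a gene of the pituitary and motor neurons, at 44.5% in Fbxl10 T/T (85 of 191) and 25.3% in WT (83 of 328), and its 19.2 points (10.7 to 27.5) fell short of 20. Lhx4, a close relative of Lhx3, rose to 47.8% in Fbxl10 T/T, against 0.448% in WT, and Isl1, a gene of heart progenitors and motor neurons, to 25.7%, against 4.70% in WT. Lhx6, a gene of cortical interneurons placed by the looser rule and so not tested, stood at 50% of 66 reads in Fbxl10 T/T and 7.09% of 141 reads in WT. Lhx9 had a single CpG with reads, at 76.7% of 30 reads in Fbxl10 T/T and 84.1% of 44 reads in WT. By the same measure the starts of Lmx1b, Lhx2 and Lhx1 stood at 66.8, 59.1 and 0% in Fbxl10 T/T and at 1.29, 2.12 and 0.346% in WT.

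Genes for cofactors of these proteins were mostly unmethylated at their starts in both libraries. So was the median placed start of the series, at 1.355% in Fbxl10 T/T and 1.333% in WT, so this does not set the cofactor genes apart. Of 9 cofactor and LIM-only genes, 5 were placed by the stricter rule, with 7 starts. Of these starts 2 rose in Fbxl10 T/T (15.2% of placed starts in the series rose), both of Lmo1, a LIM-only protein that binds LDB1. The larger of these differences was 51.7 points, at 56.0% in Fbxl10 T/T (612 of 1093 reads) and 4.29% in WT (84 of 1956; adjusted p = 1.41e-235, Fisher's exact test), and the 2 starts share nearly all their CpGs. The lowest difference, -0.712 points, was at 1 start of Ldb1, the gene for the main LIM-domain cofactor, at 0.857% in Fbxl10 T/T and 1.57% in WT. Its other start stood at 2.45% in Fbxl10 T/T and 1.66% in WT, and the starts of Lmo4, Ssbp2 and Ssbp3 lay between 0.111 and 1.53% in Fbxl10 T/T and between 0.488 and 1.88% in WT. In each of the 3 Polycomb mutants, 3 further LIM homeodomain starts and 7 cofactor starts could be tested, and none was called. Calls were rare in the series as well (0.483% of placed starts rose and 0.13% fell in Ring1B -/-, 0.27% and 0.126% in Eed -/- and 0.114% and 0.208% in Ezh2 -/-). The Lmx1b start was tested and not called either, and the Lhx1 start had too few CpGs or reads to test in any of the 3. Of the 3 ES cell marker genes placed, the start of Sox2, a gene of pluripotent and neural cells, rose to 55.4% in Fbxl10 T/T (92 of 166 reads), against 2.49% in WT (14 of 562). Esrrb, placed by the looser rule, stood at 74.2% in Fbxl10 T/T and 8.50% in WT. Pou5f1, also placed by the looser rule, had 1 CpG with reads, at 0 of 13 in Fbxl10 T/T and 2 of 28 in WT.

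**Figure D5:**
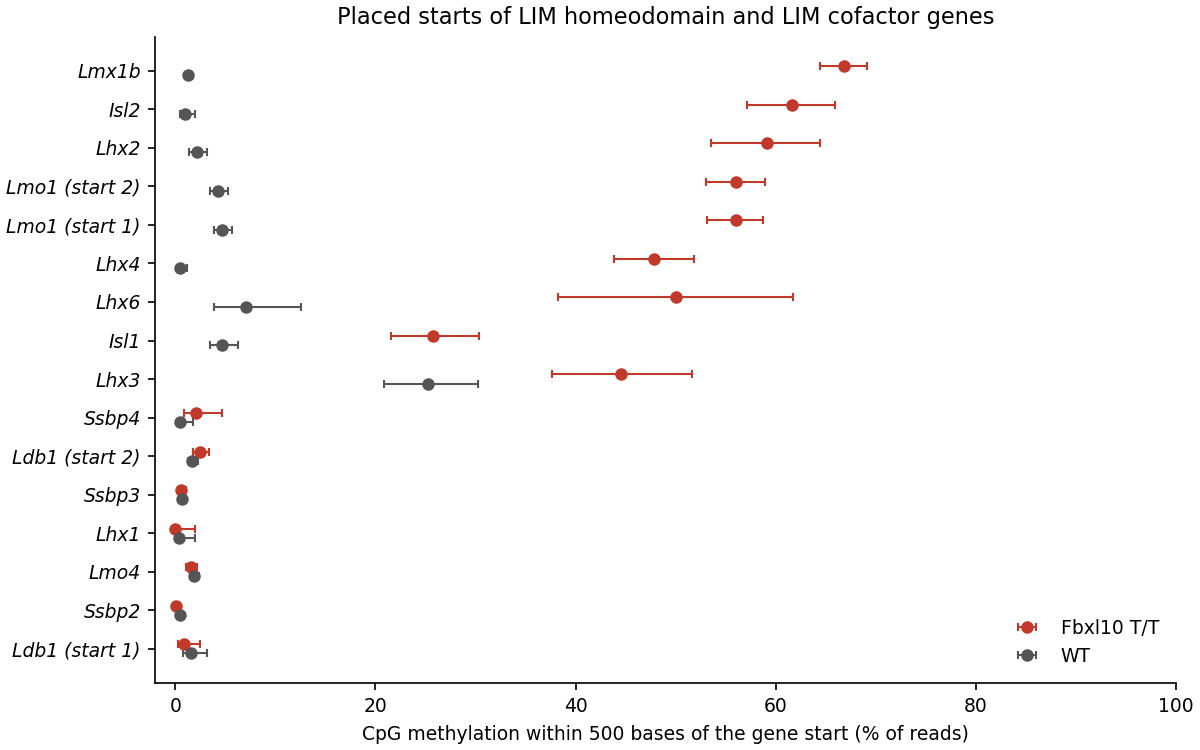
CpG methylation (percent of reads) within 500 bases of each placed start of a LIM homeodomain, LIM-only or cofactor gene with at least 5 CpGs, in Fbxl10 T/T (red, upper point) and WT (grey, lower point), ordered by the difference; bars are 95% Wilson intervals, and Lhx2, Lhx6 and Ssbp4 were placed by the looser rule. The red points of Lmx1b, Isl2, Lhx2, both Lmo1 starts, Lhx4 and Lhx6 stand at 47.8% or more, and the 0% of Lhx1 lies among the cofactor genes.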

How the data were processed

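Each library was deposited by the authors as a table with 1 row per cytosine, giving its position, strand and 5-letter context, the count of reads showing C, the count showing C or T, an effective C or T total (an estimated count, which need not be whole) and the methylated fraction, per the file headers. CpGs were listed on the plus strand only. The submitters' processing notes name BSMAP 2.74 and mm9. Per the labels' protocols, DNA was cut with MspI, converted with bisulfite and sequenced as indexed pools, with CpG-methylated DNA as a conversion control.

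CpGs outside CCGG with at least 1 read in both libraries compared were summed in 1-kb windows of the 19 autosomes and X. Windows with at least 5 such CpGs and 30 reads in each library were tested with Fisher's exact test, adjusted by Benjamini-Hochberg over the genome. Single CpGs needed 10 reads in both libraries and 25 points. Single CpGs and gene starts (500 bases either side) were adjusted over all CpGs or all placed starts of the series. The estimated counts deposited by the authors, rounded to whole reads, served as an alternative denominator; further alternatives changed the minimum reads and CpGs, the window grid, the threshold, the MspI-site CpGs and the CpGs shared between libraries. Where 0 reads were methylated, the limit given is 3 reads of the total. RefSeq promoters (GRCm38.p6) were placed where at least 10 contexts matched, at most 1 disagreed and the next best position matched at most 1 in 2 as many, which placed 9920 of 32851. A looser rule that drops the last condition was added after the data were seen, and starts placed by it were not tested. No coordinates were converted between builds. The sequence of a stretch at the remaining locus is not reported here. Named windows were, per locus, those with the largest rise, the largest fall, the most WT reads and the gene start, and every window called in a Polycomb mutant or between mutants. Of the other LIM genes, the largest and the smallest difference were named, and the remaining genes, single CpGs and neighbouring starts given by name were picked after their values were seen. The members, gene lists and rules were chosen with earlier results of these data known. Tests were checked on simulated reads drawn independently at each CpG, which leaves out the dependence of neighbouring reads. For the Polycomb mutants against WT, 56 to 60% of simulated rises of 20 points were called. Of simulated rises of 30 points, 94 to 100% were. Each genotype had 1 library, and CpG reads per library ran from 1763598 to 42999787. Python 3.11.15, numpy 2.4.6, scipy 1.17.1, pandas 2.3.3 and matplotlib 3.10.9 were used.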

Additional observations from a re-analysis of the deposited data

Results flagged for a closer look

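MspI-site CpGs, which the comparisons above leave out, read higher in mutants than in WT in several cases where the 95% intervals do not overlap. Each library was pooled over its own CpGs with reads, so the CpGs compared are not all the same. At Lhx1 36.8% of reads were methylated for Fbxl10 T/T, 44.8% for Ring1B -/-, 51.1% for Eed -/- and 47.3% for Ezh2 -/-, against 31.0% for WT. At Lhx2 the levels were 64.4% for Fbxl10 T/T, 50.6% for Ring1B -/- and 43.4% for Eed -/-, against 27.8% for WT. At Lhx5 the levels were 66.5% in Fbxl10 T/T and 37.1% in Ezh2 -/-, against 27.1% in WT. Over the 28 MspI-site CpGs of Lhx5 read in all 5 libraries, the intervals of Ezh2 -/- and WT did overlap. There Ezh2 -/- stood at 36.6% (28.6 to 45.4%) and WT at 29.2% (27.4 to 31.0%). At Lmx1b they were 63.9% in Fbxl10 T/T, 49.3% in Ring1B -/- and 50.7% in Ezh2 -/-, against 41.3% in WT. At the CpGs of Lhx1 outside MspI sites, Fbxl10 T/T (13.46%), Eed -/- (12.85%) and Ezh2 -/- (12.39%) also lay above WT (7.30%) by this measure. The interval of Ring1B -/- (10.8%, 6.93 to 16.4%) overlapped that of WT (6.60 to 8.07%), again with each library over its own CpGs. Over the 45 CpGs read in both, Ring1B -/- stood at 10.2% and WT at 3.74%. That difference was 6.50 points (2.68 to 12.1).

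Cytosines outside CpG also read higher in some Polycomb libraries than in WT, by the same measure. At Lhx1 the level was 3.56% in Ezh2 -/-, against 0.977% in WT. At Lhx2 it was 3.97% in Ring1B -/- and 2.01% in Eed -/-, against 0.418% in WT. At Lhx5 it was 1.76% for Ring1B -/-, 4.79% for Eed -/- and 1.78% for Ezh2 -/-, against 0.562% for WT. At Lmx1b it was 2.744% in Ezh2 -/-, against 0.836% in WT. These libraries hold far fewer reads than WT, and the part of depth in either pattern was not tested.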

How the results depend on the processing

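The 24 windows called for Fbxl10 T/T against WT all rose, and the number called ranged from 16 to 34 under the other settings (29 up and 5 down with MspI-site CpGs kept, 26 up and 2 down with at least 3 CpGs, 25 up and 1 down without the CpG of largest difference, and no fall under the remaining settings), apart from 11 of 13 over CpGs read in all 5 libraries, where fewer windows can be tested. Of 306 values recomputed for those 24 windows, 304 kept the call, and the Lhx2 window at 38213001 and the Lhx5 window at 120887001 lost it at a threshold of 30 points. Differences moved by over 1.5 times at that Lhx5 window, to 41.5 points without the deepest CpGs and 37.5 as a mean over CpGs beside 22.98, and at the Lhx2 window at 38210001, to 38.9 with MspI-site CpGs kept beside 58.97. Single CpGs called were 226, and 352 with MspI-site CpGs kept. In Ring1B -/- against WT the count stayed 0 under all settings run. In Eed -/- it was 1 with MspI-site CpGs kept and 1 at a threshold of 10 points. In Ezh2 -/- it was 0 with at least 5 reads per CpG, 0 with at least 10, 0 as a mean over CpGs, 0 with at least 10 CpGs, 0 with at least 100 reads per window and 0 without the CpG of largest difference, a setting added after the data were seen. The direct comparisons gave, with at least 5 reads per CpG, 5 windows against Ring1B -/-, 6 against Eed -/- and 4 against Ezh2 -/- (8, 10 and 8 as reported), and with at least 10 reads or as a mean over such CpGs 1, 1 and 0. They gave 4, 4 and 3 with at least 10 CpGs, and 1 each with at least 100 reads per window, since few windows of the shallow libraries pass. With MspI-site CpGs kept they gave 15 against Ring1B -/- and 14 against Ezh2 -/-. The Fbxl10 T/T minus WT difference moved at Lhx2 to 48.3 points (MspI sites kept) and 54.6 (mean over CpGs) beside 57.5. At Lhx5 it was 47.6 (mean) and 41.9 (CpGs in all 5 libraries) beside 44.2, and at Lmx1b 38.7 (MspI sites), 45.7 (mean) and 56.5 (CpGs in all 5) beside 50.8. Some small locus differences changed sign: Ring1B -/- minus WT was -1.36 at Lhx2 (3 CpGs) and -8.21 at Lhx5 (1 CpG) with at least 10 reads, summed or as a mean, beside 3.90 and 8.84 over all shared CpGs, and 0.775 at Lmx1b with MspI sites kept, beside -2.86. Eed -/- minus WT at Lmx1b was 0.405 and 0.335 with at least 10 reads, summed and as a mean, beside -4.79. Except for fewer windows or CpGs, the cause was not tested. No paired analysis was possible because each genotype has 1 library and the labels give no replicate numbers, and for the same reason no library could be left out.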
